A study of Caenorhabditis elegans with 14 samples.

Results

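The 3′ ends of 26S ribosomal RNA in Caenorhabditis elegans embryos carried short added sequences, and those of 2 nt or more that held at least 1 G or C are described here. They were taken from the deposited lists of added sequences by length and letters alone, and 458 of the 601 distinct sequences listed over the 5 libraries met the rule. The other 139 distinct sequences of 2 nt or more were made of T and A only and serve as the comparison. The single bases G and C, being 1 nt, were not members. Sequences are written as the files give them, with T for U.

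Each of the 5 groups was 1 library of total RNA from embryos of worms grown at 20 °C. The N2 library was from the wild type, and the susi-1(ust1) library from that mutant; the labels of neither name a transgene. The other 3 libraries carried eri-1(mg366) together with the transgene 3xflag::gfp::nrde-3, the eri-1 control included. They were eri-1 itself, the double mutant eri-1;susi-1(ust1), and eri-1 held at 4 °C for 12 h and returned to 20 °C for 2 h, here called eri-1 cold. RNA 3′ ends were joined to a linker and amplified with a primer in 26S rRNA, so each read reports the letters between the rRNA and the linker. Without replicates, each difference is between 2 libraries, and the 95% intervals cover counting error only, leaving out the spread between cultures and between PCR copies.

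Uridylyltransferases, among them CDE-1 in C. elegans, add U to RNA 3′ ends, and nucleotides other than U can also be found in such tails. Enzymes of the DIS3L2 family, to which SUSI-1 (also called DISL-2) belongs, are exonucleases that degrade RNA bearing a run of U from its 3′ end. ERI-1 is an exonuclease that trims the 3′ end of 5.8S rRNA and limits small RNA pathways. NRDE-3 is an Argonaute protein that carries small RNAs to the nucleus, including those made from rRNA. Cold shock is known as a treatment that raises small RNAs antisense to rRNA in this animal.

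The members on which the values turn are shown here, from the deposited lists, 5′ to 3′ with each G and C in capitals. The first 11 were among the 5 most read of at least 1 library, the next 5 were called in at least 1 comparison, and the last 3 stand for long and linker-like tails.
1 T, then G: tG
1 T, then C: tC
G, then T: Gt
G, then C: GC
T, A, then G: taG
2 T, then G: ttG
2 T, G, then A: ttGa
C between T: tCt
G between T: tGt
2 T, then C: ttC
3 T, then C: tttC
2 T, A, then G: ttaG
2 T, 2 A, then G: ttaaG
2 T, C, then A: ttCa
T and G in turn: tGtG
T, A, G, then A: taGa
8 nt, in the 3 eri-1 libraries: ttCtCaaC
6 nt, ending like a linker start: tGatCC
7 nt, 6 T before the C: ttttttC

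Members made up 5119 reads of 153 distinct tails in N2 and 7116 of 179 in susi-1(ust1), with 2039 of 135 in eri-1, 2068 of 127 in the double mutant and 604 of 186 in eri-1 cold. These counts are after division by 4 in the 3 eri-1 libraries, where every deposited count was a multiple of 4. Levels are given as counts per 1000000 listed reads (CPM), and the reads used were 11202100, 10798391, 3897762, 3802604 and 2047639 in the same order. A single T took 74.9% to 81.3% of them, a single C 15.6% to 22.1% and a single G 0.362% to 2.86%, and whether any of these bases belongs to the encoded rRNA end was not tested.

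The members' summed level was 456.97 CPM (445 to 470) in N2 and 659 (644 to 674) in susi-1(ust1), with 523 (501 to 546) in eri-1, 544 (521 to 568) in the double mutant and 295 (272 to 319) in eri-1 cold. The cold-treated library was thus the lowest and susi-1(ust1) the highest, while eri-1 and the double mutant had overlapping intervals. Tails of T and A only stood at 583, 879, 656, 661 and 1657 CPM in the same order, with the cold-treated library the highest. Members were therefore 43.9% (43.0 to 44.9) of reads with 2 nt or more in N2 and 42.8% in susi-1(ust1), with 44.4% in eri-1 and 45.1% in the double mutant, against 15.1% (14.0 to 16.3) in eri-1 cold.

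Most distinct members were rare. Of the 458, 317 (69.2%) were seen in 1 library only, 51 in 2, 30 in 3, 29 in 4 and 31 in all 5. Members of 7 to 9 nt could be seen only in the eri-1 libraries, as the other lists end at 6 nt. The 31 shared tails held 92.7% of member reads in N2 and 93.9% in susi-1(ust1), with 83.6% in eri-1, 87.3% in the double mutant and 65.7% in eri-1 cold. In eri-1 cold 129 of its 186 members (69.4%) rested on 1 read, against 31.5% to 43.8% in the other libraries. These counts are not given for tails of T and A only, so rarity is not shown to be particular to members. A tail absent from a library could still be present at up to 0.268 CPM in N2 and 0.278 CPM in susi-1(ust1), and up to 0.770, 0.789 and 1.47 CPM in eri-1, the double mutant and eri-1 cold, the limit that a count of 0 allows.

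A pair of 2-nt tails dominated the class. The tail tG had 2878 reads in N2 and 4086 in susi-1(ust1), with 1003 in eri-1, 1091 in the double mutant and 54 in eri-1 cold, or 257, 378, 257, 287 and 26.4 CPM. It was the most read member everywhere except in eri-1 cold, where it came after tC. The tail tC had 833, 1064, 267, 352 and 102 reads in the same order, or 74.4, 98.5, 68.5, 92.6 and 49.8 CPM, a range far narrower than that of tG. Beside them, the 2-nt tail of T only stood at 326, 429, 456, 361 and 540 CPM, so tG stood below it in all 5 libraries and by the widest margin after cold. Among the 4 tails that begin with T and have 1 more base, tG took 32.6%, 35.2%, 29.9% and 33.2% in the first 4 libraries and 2.60% in eri-1 cold. The share of tC was 9.43%, 9.17%, 7.96%, 10.7% and 4.91%.

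Most other 2-nt member reads were of tails beginning with G or C, and those beginning with A were few. The tail Gt stood at 27.8, 40.2, 24.1, 14.2 and 25.4 CPM from N2 to eri-1 cold, in the order above, and the cold-treated library lay within the range of the others. Next came GC with 100, 115, 21, 15 and 8 reads, while GG had 23, 30, 4, 3 and 12 reads. The remaining 2-nt tails found in all 5 libraries were scarce: CC had 2 to 10 reads and Ct had 1 to 19.

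The class was short and T-first, and in these respects the cold-treated library differed from the rest. Tails of 2 nt held 81.9% of member reads in N2 and 81.4% in susi-1(ust1), with 69.3% in eri-1, 74.0% in the double mutant and 39.1% in eri-1 cold. Mean length was 2.33, 2.34, 2.79, 2.68 and 3.89 nt, against 2.34, 2.51, 2.33, 2.44 and 2.94 nt for tails of T and A only. The lists end at 6 nt in N2 and susi-1(ust1) and at 9 nt in the 3 eri-1 libraries. Mean lengths are thus comparable within each of these sets of libraries but not between them. T was the first base in 90.0%, 90.6%, 92.8%, 95.7% and 84.9% of member reads, in the order above, and G was the first base in most of the remainder (3.48% to 12.3%).

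The G or C mostly sat at the 3′ end. A single G or C was present in 91.9%, 92.9%, 85.7%, 89.2% and 81.5% of member reads. It stood only at the last base in 78.8% of reads in N2 and 80.3% in susi-1(ust1), with 69.2% in eri-1, 76.9% in the double mutant and 52.3% in eri-1 cold. Among members of 3 nt or more, most reads had their first G or C inside, at neither the first nor the last base. These were 576 of 927 reads in N2 and 730 of 1325 in susi-1(ust1). They were 491 of 626 in eri-1, 395 of 538 in the double mutant and 204 of 368 in eri-1 cold. G without C was found in 73.5%, 76.1%, 70.3% and 67.7% of member reads in the first 4 libraries and in 43.5% after cold. C without G took 21.3%, 19.9%, 24.2% and 27.0% in those 4 and 48.3% after cold. With tG left out and tC kept, G-only tails had 885 reads against 1092 for C-only tails in N2 and 1331 against 1419 in susi-1(ust1). In eri-1 they had 431 against 494, and in the double mutant 309 against 559. Members of 3 nt or more leave out both tG and tC. There G-only tails had 549 reads against 241 in N2 and 863 against 323 in susi-1(ust1). They had 331 against 206 in eri-1 and 250 against 194 in the double mutant. In eri-1 cold C-only tails had more reads with tG kept (292 against 263), without it (292 against 209) and at 3 nt or more (184 against 143).

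A 2-nt member cannot hold 2 T, so runs of T are described in tails of 3 nt or more. At least 2 T in any place were found in 55.1%, 68.5%, 76.8%, 74.5% and 68.5% of these member reads, against 78.5%, 83.7%, 76.2%, 81.9% and 67.3% of reads of T and A only. The shares of members were thus lower in N2, susi-1(ust1) and the double mutant and overlapped within their intervals in eri-1 and eri-1 cold. A start of at least 2 T was found in 38.1%, 54.1%, 35.8%, 49.3% and 48.9% of member reads of 3 nt or more, against 67.8%, 78.5%, 58.8%, 73.0% and 55.4% for T and A only. The base that ended such a run was A, G or C, and its kind differed between libraries. After a single T it was G in 51.5% of reads in N2 and 54.4% in susi-1(ust1), with 55.6% in eri-1 and 52.8% in the double mutant, but in 5.07% (4.09 to 6.21) in eri-1 cold, where it was A in 86.3%. Most of these reads with G were tG itself. After 3 T it was C in 39.7% (31.4 to 48.4) of 136 reads in eri-1 cold, against 16.9% (9.75 to 26.3) of 89 reads in eri-1 and 25.6% (18.1 to 34.4) of 121 in the double mutant, whose interval overlapped both. Runs of 5 or more T were followed by C in 10 of 17 reads in eri-1 cold, and by C in 0 of 10 reads in eri-1 and in 0 of 10 in the double mutant, where G followed in 9 and in 8. These long runs are few reads, and the shares of G were 23.5% (6.81 to 49.9) after cold and 90.0% (55.5 to 99.7) in eri-1.

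The 3-nt and longer tails found in all 5 libraries fell into T, T-A and T-G or T-C starts. With 2 T first, ttG had 51, 152, 17, 16 and 5 reads from N2 to eri-1 cold, in the order above, and ttC had 58, 90, 17, 45 and 21. The former was highest in susi-1(ust1), and the latter reached 11.8 CPM in the double mutant and 10.3 CPM in eri-1 cold, against 4.36 CPM in eri-1. With 3 T first, tttC had 18, 45, 5, 16 and 31 reads, while tttG had 9, 25, 10, 5 and 1. An extra base after 2 T gave ttGa (68, 120, 7, 10 and 9 reads), ttCt (23, 26, 6, 18 and 3), ttaG (21, 60, 22, 3 and 5) and ttaC (14, 14, 6, 2 and 4). The longest shared tails were ttaaG (3, 22, 8, 9 and 9 reads), ttaaC (2 to 7 reads) and tttCCt (2 to 4 reads).

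Tails with A as the second base were of similar scale. The reads of taG were 74, 51, 22, 5 and 13, and those of taC 24, 28, 6, 16 and 13. Both taaC and taaG had 10 or fewer reads in any library, and taGt had 4 or fewer. With G second, tGa had 68, 80, 10, 12 and 7 reads, tGG had 48, 79, 16, 27 and 1, and tGaa had 3 to 8. The tail tGt had 32, 59, 47, 29 and 5 reads, or 2.86, 5.46, 12.1, 7.63 and 2.44 CPM, and so was highest in eri-1. With C second, tCt had 7, 4, 58, 24 and 4 reads, tCa had 25, 29, 16, 11 and 5, tCC had 6, 2, 11, 13 and 5, and tCG had 3 or fewer. Of these, tCt stood out by its level in eri-1, 14.9 CPM against 0.62 CPM in N2.

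The libraries were compared in 4 pairs, and the eri-1 library entered 3 of them, so those 3 share its counts. A tail was called when its level differed by at least 2-fold and the interval of the ratio left out 1, among tails with 20 or more reads in the pair. This threshold admits a minority of members, which nonetheless held 50.5% to 94.96% of the member reads of a library. A tail absent from a library of a pair met this minimum through the other library alone. It could therefore be called only in the direction of that other library, and such tails are counted among those called. The intervals were not adjusted for the number of tails.

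Cold shock was examined in eri-1 cold against eri-1, and here members and tails of T and A moved apart. The members' level was 1.77-fold lower after cold (1.62 to 1.95), while tails of T and A only were 2.53-fold higher (2.40 to 2.66). The odds of a tail of 2 nt or more being a member were 0.223 times those in eri-1 (0.201 to 0.248). The tail tG, 54 reads against 1003, was the member behind the lower sum, being 9.76-fold lower (7.42 to 13.1). Without it, the other members summed to a ratio of 1.01 (0.910 to 1.12), while the members' share of tails was still below that of eri-1, at a ratio of 0.611.

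By length, the 2-nt members had a ratio of 0.318 (0.276 to 0.365), those of 3 nt 0.690 (0.534 to 0.885), those of 4 to 6 nt 1.33 (1.10 to 1.61) and those of 7 to 9 nt 1.51 (1.14 to 1.99). The longer classes were thus above 1, yet each stayed behind the T and A tails of its length, which were 5.06-fold higher at 3 nt and 4.12-fold higher at 4 nt. Tails with G but no C had a ratio of 0.349 (0.305 to 0.398), and those with C but no G 1.13 (0.970 to 1.30). Without tG the G tails had 209 against 431 reads, a ratio of 0.923 (0.779 to 1.09), so most of the low value was that of tG. A contrast between G and C remained at 3 nt or more, where both tG and tC drop out. There G without C had a ratio of 0.822 (0.671 to 1.004) and C without G 1.70 (1.39 to 2.08). The odds ratio of G-only tails against the other members was 0.567 (0.432 to 0.742). Members that began with 2 or more T were 1.53-fold higher (1.25 to 1.87), and other members, tG among them, had a ratio of 0.445, an odds ratio of 3.44 (2.73 to 4.32). Without tG the others had a ratio of 0.867 and the odds ratio was 1.76 (1.39 to 2.24). Among members of 3 nt or more, the only ones that can begin with 2 T and hold G or C, the odds ratio was 1.72 (1.31 to 2.25). For T and A tails of 2 nt or more the split ran the other way, with 1.76-fold higher for 2 or more T first and 5.64-fold for fewer. Those tails include the 2-nt tt and ta. At 3 nt or more, 55.4% (52.8 to 58.0) of T and A reads began with 2 or more T in eri-1 cold. In eri-1 it was 58.8% (54.2 to 63.3), and the 2 intervals overlapped.

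Of 275 members seen in the cold pair, 14 had enough reads, and 2 were higher and 5 lower. Over all 34 tails of 2 nt or more with enough reads, 52.9% were called higher and 14.7% lower, and the T and A tails gave 16 higher and 0 lower of 20. The median log2 ratio was -0.70 for the 14 members and 1.36 for all 34. The higher members both ended in C after a run of T: tttC with 31 against 5 reads (11.8-fold, 4.55 to 38.9) and ttC with 21 against 17 (2.35-fold, 1.18 to 4.75). Beside them, the 3-nt run of T alone was 4.44-fold higher and the 4-nt run 6.04-fold. Besides tG, the lower members were tCt with 4 against 58 reads (7.62-fold) and tGt with 5 against 47 (4.94-fold). Also lower were tGtG with 0 against 21 and ttCa with 0 against 20. With the floor of 3 reads in place of 0, tGtG was 3.68-fold and ttCa 3.50-fold lower. Their intervals, taken at 0, began at 2.74-fold and 2.59-fold. The floor of 3 reads stands in for a count of 0. Apart from tG, each lower member was also called higher in eri-1 than in N2. The level of tCt was 0.62 CPM in N2, 14.9 CPM in eri-1 and 1.95 CPM in eri-1 cold. That of tGt was 2.86, 12.1 and 2.44 CPM in this order. That of tGtG was 0.27, 5.39 and 0 CPM, and that of ttCa 0, 5.13 and 0 CPM. The tail tG stood at 257 CPM in both N2 and eri-1. For each but tG, both calls thus share the same eri-1 counts. Not every G tail was lower, as Gt had 52 against 94 reads, a ratio of 1.05 (0.736 to 1.49). The single base G, which is no member, was also lower after cold, 6.17-fold (6.03 to 6.32). For A and C, single base and 2-nt tail went opposite ways. The single A was 2.98-fold lower and ta 5.05-fold higher, and the single C had a ratio of 1.13 and tC 0.727 (0.573 to 0.917). The part of the single bases in the result was not tested.

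The susi-1(ust1) mutation was examined in 2 pairs. In susi-1(ust1) against N2, members were 1.44-fold higher (1.39 to 1.495) and tails of T and A only 1.51-fold. The odds ratio between them was 0.956 (0.911 to 1.00), so the share of tails with G or C was little different. The length classes of members had similar ratios, of 1.43 at 2 nt, 1.45 at 3 nt and 1.51 at 4 to 6 nt. T and A tails of 3, 4 and 5 nt were 2.21-, 2.38- and 2.57-fold higher, and at these lengths the odds ratio for members was below 1 (0.656, 0.627 and 0.600). At 2 nt, which held most reads, it was 1.10 (1.04 to 1.16), and at 6 nt 0.915 (0.594 to 1.41).

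Members that started with 2 or more T were 2.11-fold higher in susi-1(ust1) (1.85 to 2.40), and the others 1.39-fold (1.34 to 1.45), an odds ratio of 1.51 (1.32 to 1.73). Among members of 3 nt or more the odds ratio was 1.92 (1.61 to 2.28). This trait was not particular to members. Of T and A reads of 3 nt or more, 78.5% (76.9 to 79.9) began with 2 or more T in susi-1(ust1), against 67.8% (65.3 to 70.3) in N2. Among members the split held less for kind of base: the ratio was 1.49 for G without C, 1.35 for C without G and 1.10 (0.927 to 1.31) for both. The tail tG had a ratio of 1.47 (1.40 to 1.55), tC 1.33 (1.21 to 1.45) and the 2-nt tail of T only 1.32 (1.26 to 1.37), all short of 2-fold.

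Of 235 members seen in this pair, 30 had enough reads, 6 of them were higher and 1 lower. Over all 52 tails with enough reads, 32.7% were called higher and 1.92% lower, and among the 22 of T and A only 11 were higher and 0 lower. The median log2 ratio was 0.38 for the members and 0.63 for the whole list, and that difference was not tested. All 6 higher members began with 2 or 3 T: ttaaG (22 against 3 reads, 7.61-fold, 2.29 to 39.7), ttG (152 against 51, 3.09-fold, 2.24 to 4.33), ttaG (60 against 21, 2.96-fold, 1.78 to 5.13), tttG (25 against 9, 2.88-fold), ttCtC (18 against 7, 2.67-fold) and tttC (45 against 18, 2.59-fold). The T and A tails called higher also began with 2 or more T, all but taa. The lower member was taGa, with 5 against 21 reads (4.05-fold, 1.49 to 13.7). The next lowest by the interval bound, taG and tGC, had ratios of 0.715 (0.490 to 1.04) and 0.704.

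In the double mutant against eri-1, the summed level differed little, at 1.04 (0.977 to 1.11), beside 1.01 for T and A tails. Within the class, members of 2 nt were slightly higher (1.11, 1.03 to 1.19) and longer ones slightly lower (0.881, 0.784 to 0.990). Members of 3 nt had a ratio of 0.867 against 1.78 for T and A tails of that length, an odds ratio of 0.487 (0.376 to 0.630). At 2 nt the order was the other way, with T and A tails at 0.907 and an odds ratio of 1.22 (1.11 to 1.35). Members ending in T had a ratio of 0.636, those ending in C 1.32, those beginning with G 0.610 and those beginning with 2 or more T 1.21 (1.01 to 1.46). Among members of 3 nt or more the odds ratio for that start was 1.74 (1.37 to 2.22). Of T and A reads of 3 nt or more, 73.0% began so in the double mutant, against 58.8% in eri-1. Members with 2 or more T in any place went the other way, at 0.855 (0.747 to 0.978).

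Here 19 of the 210 members seen had enough reads, 4 were higher and 5 lower, against 22.6% higher and 22.6% lower over all 31 tails with enough reads. The higher members all ended in C or C and T: tttC (16 against 5 reads, 3.28-fold), ttCt (18 against 6, 3.08-fold), taC (16 against 6, 2.73-fold) and ttC (45 against 17, 2.71-fold). The lower ones were ttCa with 0 against 20 reads (at least 6.50-fold), tGtG with 2 against 21 (10.2-fold), ttaG with 3 against 22 (7.15-fold), taG with 5 against 22 (4.29-fold) and tCt with 24 against 58 (2.36-fold). All of these lower members but taG were also called higher in eri-1 than in N2, so the same eri-1 counts enter both calls. The tail tC, 352 against 267 reads, was 1.35-fold higher (1.15 to 1.59) and not called. The single C was likewise 1.25-fold higher, while the single G and the single A had ratios of 0.788 and 0.452, and tG had 1.11 (1.02 to 1.22). The part of the single bases in these values was not tested.

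The last pair set eri-1 against N2, which differ in the eri-1 allele, the transgene and the listed lengths, so these cannot be told apart. Members were 1.14-fold higher in eri-1 (1.09 to 1.21) beside 1.13-fold for T and A tails, an odds ratio of 1.02 (0.949 to 1.09). The summed ratio varied with the members counted: it was 1.94 at 3 nt or more, 3.85 without members ending like a linker's first base or bases, 0.729 with single G and C included and 1.00 (just under 1) for members with 10 or more reads in each library. The linker setting left out 97.5% of member reads in N2 and 91.7% in eri-1, so 3.85 describes the small remainder. The 2-nt members had a ratio of 0.969 (tG: 1.00, 0.931 to 1.08), those of 3 nt 1.59 and those of 4 to 6 nt 1.55. Tails with the G or C inside, neither first nor last, were 2.45-fold higher, and those with 2 or more T 2.71-fold. Both of these classes, and that of 3 nt or more, include members of 7 to 9 nt, which N2 does not list. Such members held 121 reads in eri-1. With members of up to 6 nt only, the summed ratio was 1.08 (1.02 to 1.14).

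Of the 226 members seen in this pair, 29 had enough reads, 6 were higher and 5 lower. The shares over all 44 tails with enough reads were 20.5% higher and 18.2% lower. Higher in eri-1 were tCt (58 against 7 reads, 23.8-fold, 10.9 to 61.8), tGtG (21 against 3, 20.1-fold) and ttCa (20 against 0). Also higher were tGt (47 against 32, 4.22-fold), ttaG (22 against 21, 3.01-fold) and tGGt (13 against 14, 2.67-fold). Lower were CG (1 against 27 reads, 9.39-fold), ttGa (7 against 68, 3.38-fold), tGatC (0 against 22), taGa (0 against 21) and tGa (10 against 68, 2.37-fold). With the floor of 3 reads in place of 0, ttCa was 19.2-fold higher, tGatC 2.55-fold lower and taGa 2.44-fold lower. Their intervals, taken at 0, began at 14.2-fold, 1.91-fold and 1.81-fold, so those of tGatC and taGa reached below 2-fold.

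Some members ended like the start of a linker. The protocol lists 3 linkers, the first of which starts with GATCC, and the sources used here do not say which library received which. Members whose last 3 or more bases equalled the first bases of a linker held 87 reads in N2 and 69 in susi-1(ust1), with 12 in eri-1, 28 in the double mutant and 13 in eri-1 cold, or 0.589% to 2.15% of member reads. Among them tGatCC had 12, 15, 0, 0 and 1 reads and tGatC 22, 14, 0, 0 and 1, so this ending was concentrated in N2 and susi-1(ust1). Members ending with at least the first base of a linker, among them every member with G or C last, held 83.1% to 97.9% of member reads. The part of linker sequence in the ends of such short tails was not tested.

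From 80.0% to 92.9% of member reads were 1 substitution away from a T and A tail of the same library. By construction, any member with a single G or C is 1 substitution from a sequence of T and A. Such members held 81.5% to 92.9% of member reads, so the share of neighbours adds little to that count. Neighbours with at least 100 times the member's reads were found for 2 to 9 members a library, which together held 4 to 34 reads (0.273% to 0.662% of member reads).

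Tails of 7 to 9 nt were listed in the 3 eri-1 libraries alone, and there most of them held G or C in the libraries without cold. Members were 77.8%, 98.2% and 96.9% of reads at 7, 8 and 9 nt in eri-1, and 84.2%, 85.2% and 88.2% in the double mutant, but 33.8%, 37.1% and 65.8% in eri-1 cold. The T and A tails that made up the remainder after cold included runs of 7 T with 17 reads and of 8 T with 22 reads, both at 0 reads in eri-1 and in the double mutant. The tail ttCtCaaC had 11 reads in eri-1, 4 in the double mutant and 3 in eri-1 cold. Long members with a run of T differed in their G or C: ttttttGt had 3, 0 and 3 reads, and ttttttC had 4 reads in eri-1 cold and 0 in the others.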

How the data were processed

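Per the labels' protocols, total embryo RNA was ligated to a 3′ linker, reverse transcribed and amplified from 26S rRNA. Per the submitters' processing notes Bowtie2 was used. Its version and role, the genome build and the way tails were separated from rRNA were not given in the sources used here. Per library, the authors deposited read counts per added 3′ sequence, with a total equal to the sum of the listed counts. Counts in the 3 eri-1 libraries were all multiples of 4 and were divided by 4 before use. Levels are CPM, computed here as reads per 1000000 listed reads. The series' 9 small RNA libraries were not analysed here.

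With 1 library a group, 14 in the series, no test across samples was possible. Ratios have exact conditional binomial intervals at 95%, shares Clopper-Pearson intervals and odds ratios exact conditional intervals (Python 3.11.15, scipy 1.17.1, pandas 2.3.3). The interval code was tested on simulated data. Median log2 ratios use 0.5 reads added to each count. A count of 0 was set to 3 reads for the fold of a tail at 0, while its interval was taken at 0. The tails named are the 5 members with most reads in each library, every member found in all 5, and, among members with 20 or more reads in a pair, the 3 with the highest and the 3 with the lowest ratio, ranked on whichever end of the interval lies closer to 1. Other called members are named as well. Some tails are given after their values were seen: those like a linker, those of 7 to 9 nt and those after runs of T. The members, comparisons and rules were chosen with earlier results of these data known. Alternatives covered the denominator, minimum reads, length limits, single tails left out, linker-like ends and substitution neighbours.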

Additional observations from a re-analysis of the deposited data

Results flagged for a closer look

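The tail ttaG moved in opposite directions with the susi-1(ust1) mutation in the 2 backgrounds. It was 2.96-fold higher in susi-1(ust1) than in N2 (60 against 21 reads, 1.78 to 5.13), and its ratio was 0.14 in the double mutant eri-1;susi-1(ust1) against eri-1 (3 against 22 reads). Each value compares 1 library with 1 other, and the difference between them was not tested.

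The single bases G and C lie outside the members. The single G was above its control in susi-1(ust1), at 1.17 times N2. The single C was above the eri-1 control at 1.25 times in the double mutant and at 1.13 times after cold.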

How the results depend on the processing

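No paired analysis was possible because each group is 1 library. Over 100 alternatives to the 12 summed ratios, shares and counts, 63 kept direction and side of the threshold or, for counts, moved little; the others follow, and the causes were not tested unless the construction shows them. For susi-1(ust1) against N2, the summed ratio (1.44) was 0.975 per read with 2 nt or more and 0.943 with single bases counted. For eri-1;susi-1(ust1) against eri-1 (1.04), it was 0.967 without tG, its most read member, 0.881 at 3 nt or more and 0.813 without members ending like a linker's first base or bases; the share ratio (1.02) became 0.946, 0.781 and 0.795. For eri-1 cold against eri-1 (0.564), it was 0.341 per read with 2 nt or more, 0.328 with 10 or more reads in each library, 1.01 with single bases, 1.01 without tG, 1.12 at 3 nt or more and 1.15 without linker-like ends; the share ratio (0.341) became 0.999 with single bases, 0.611 without tG and 0.694 without linker-like ends. For eri-1 against N2 (1.14), it was 0.729 with single bases, 1.00 with 10 or more reads (just under 1) and 3.85 without linker-like ends; the share ratio (1.01) became 0.738, 0.882 and 3.40, and 0.978 for tails up to 6 nt. Single members called, 7, 9, 7 and 11 in the order susi-1(ust1), eri-1;susi-1(ust1), eri-1 cold, eri-1, were 3, 2, 3 and 4 at a minimum of 50 reads, where fewer tails are eligible. With 10 reads, cold gave 14 and eri-1 against N2 17. With counts undivided, which narrows intervals and makes more tails eligible, the 3 pairs with eri-1 gave 37, 36 and 31. The setting without linker-like ends left out 83.1% to 97.9% of member reads a library. Depth limits eri-1 cold most: 604 member reads, a limit of 1.47 CPM for a tail at 0.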

Other observations

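Tails of 7 to 9 nt were checked, after their values were seen, for partners that differ only in a last base of C or T. In eri-1, 16 of the 37 tails ending in C or T had such a partner (8 pairs, 26 reads with C and 29 with T), and in eri-1;susi-1(ust1) 16 of 26 (8 pairs, 17 and 21 reads). In eri-1 cold 12 of 68 did (6 pairs, 12 and 45 reads). For last bases of A or T, partners were found for 2 of 35, 4 of 37 and 22 of 105 tails in the same order. With G or T they were found for 2 of 29, 0 of 22 and 4 of 61, and with A or G for 0 of 16, 0 of 31 and 4 of 64. After cold, the share with a C or T partner (17.6%) was thus below that with an A or T partner (21.0%). The share of C among the single bases C and T was 16.3%, 20.0% and 17.9% in these libraries. Examples of pairs, with the reads in the text after them, were as follows.
eri-1, with C: tattCCCC
eri-1, with T: tattCCCt
eri-1, second pair, with C: ttCtCaaC
eri-1, second pair, with T: ttCtCaat
eri-1 cold, with C: ttttttC
eri-1 cold, with T: ttttttt
The first pair had 2 reads with C and 8 with T, the second 11 and 3, and the pair in eri-1 cold 4 and 17. No explanation was tested.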
